A study of Mus musculus with 10 samples.

Results

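The intermediate filament genes of reactive glia were followed across mouse retinas with and without oxygen-induced retinopathy (OIR). They are Gfap, Vim, Nes, Synm and Plec, to which Cd44, a surface receptor of reactive glia, was added. These 6 genes were taken by name from the 30063 genes with a transcript cluster annotated to 1 symbol alone. A transcript cluster is the set of array probes that reads 1 gene locus, and each of the 6 had a single one. All 6 passed the filter on dim clusters, as did 23255 genes in all. The arrays measured total RNA of whole retina from C57BL/6JJmsSlc mice, with 2 arrays in each of 5 groups. Untreated retina was taken at postnatal day 7 and at day 17. The other 3 groups were day 17 retinas of mice that had breathed 75% oxygen from day 7 for 5 days before returning to room air. One of these was left without injection, 1 received phosphate-buffered saline (PBS) into the vitreous when hyperoxia ended, and 1 received ISOX DUAL there at the same time, a compound known as a bromodomain inhibitor. The dose of ISOX DUAL is not given in the sources used here. Nothing in the labels tells if both arrays of a group stem from different mice, so the p-values reflect only how much these arrays vary, and that variation may be technical.

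Intermediate filaments are rope-like polymers that give a cell tensile strength. In the retina they fill the Müller cells, which span its whole thickness, and the astrocytes of the nerve fibre layer. Healthy Müller cells hold vimentin but little glial fibrillary acidic protein (GFAP), and GFAP in Müller cells is the most widely used sign of retinal gliosis. Nestin belongs to neural progenitors and is made again by reactive glia and by growing vessels. Synemin copolymerises with vimentin and GFAP, plectin ties the filaments to other parts of the cytoskeleton and to junctions, and CD44 binds hyaluronan at the Müller cell tips. The cytokine receptor subunit gp130 and its transcription factor STAT3 drive GFAP transcription.

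The promoters of Gfap, Nes and Cd44 are shown because these 3 genes passed the test in uninjected OIR. Each run is 250 bases long, written 5′ to 3′ on the gene's own strand, and comes from RefSeq on GRCm38.p6, which held a promoter for 5 of the 6 genes. Positions count from the annotated start, with 1 as the first transcribed base and no position 0. The Gfap run covers positions -243 to 7 at chr11:102897194-102897443 on the minus strand, and its capitals mark a match to the STAT-type motif TTCNNNGAA at -2 to 7. The Nes run covers -250 to -1 at chr3:87970843-87971092 on the plus strand and held no match to the motifs searched. The Cd44 run covers -250 to -1 at chr2:102901666-102901915 on the minus strand, and its capitals mark ACGTG, the core of a hypoxia response element, at -29 to -25.
Gfap: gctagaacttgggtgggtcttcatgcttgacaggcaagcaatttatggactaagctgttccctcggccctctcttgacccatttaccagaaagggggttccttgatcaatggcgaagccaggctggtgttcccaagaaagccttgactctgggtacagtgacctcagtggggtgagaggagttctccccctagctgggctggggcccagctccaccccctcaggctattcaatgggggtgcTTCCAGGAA
Nes: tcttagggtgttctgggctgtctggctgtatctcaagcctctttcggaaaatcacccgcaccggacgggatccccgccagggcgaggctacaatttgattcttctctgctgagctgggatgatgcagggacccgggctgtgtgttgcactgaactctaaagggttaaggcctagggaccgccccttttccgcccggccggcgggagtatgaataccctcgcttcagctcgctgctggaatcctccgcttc
Cd44: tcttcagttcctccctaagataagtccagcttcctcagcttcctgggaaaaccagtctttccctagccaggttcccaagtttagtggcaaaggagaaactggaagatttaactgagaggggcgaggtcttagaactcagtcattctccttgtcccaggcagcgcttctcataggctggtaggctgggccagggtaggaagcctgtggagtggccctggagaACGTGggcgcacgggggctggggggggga

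The motifs searched were TTCNNNGAA, TGANTCA (AP-1 type), ACGTG and GCGTG on both strands, and TATAAA on the sense strand. TTCNNNGAA and TGANTCA equal their own reverse complements, so both strands give the same match. Over 32841 RefSeq promoters, 8.30% held TTCNNNGAA in the window of 300 bases from -250 to 50, the window in which the Gfap match lies. In the 250 bases before the start, ACGTG was present in 16.6% of promoters, GCGTG in 28.2%, TATAAA in 7.59% and TGANTCA in 6.75%. Among the other members, Vim held TATAAA at -32 to -27. Synm held ACGTG on the plus strand at -192 to -188 and on the minus strand at -193 to -189, which overlap, and GCGTG on the minus strand at -213 to -209. A match describes the letters of the window and is not a measured binding site.

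Values are log2 probe signals, and only levels of the same gene are compared. The 10 arrays had similar signal over background, with 8.00% to 9.97% of transcript clusters above the 95th percentile of negative control probes on the same array. The median of those control probes, used here as the background, lay between 5.83 and 6.11. Vim exceeded the 95th percentile on all 10 arrays and Gfap on both uninjected OIR arrays and 1 ISOX DUAL array. Nes in untreated day 17 retina and Cd44 in day 7 retina lay below the background median on both arrays, so no fold is given against those groups. Log2 differences against a group below background, of these or other genes, are fitted values and not exact sizes. Rod and cone genes marked the tissue as retina, with a list mean of 10.5 to 10.7 at day 17 in untreated samples. The second ISOX DUAL array stood apart through lens genes, with a mean of 7.57 over 18 of them against at most 6.29 on the other arrays. Small nucleolar RNA genes, whose signal can vary with how RNA was prepared, had means from 7.31 to 9.19 over the arrays. They were higher on the second array than on the first in each uninjected group. The labels name no preparation batch, and what lay behind these means was not tested. Because the tissue was measured in bulk, more cells of a type and more RNA per cell cannot be told apart.

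Uninjected OIR retina had higher Gfap, Nes and Cd44 than untreated retina of the same day. Gfap showed the largest difference of the 6 and the seventh largest of all genes tested. Vim and Synm differed in the same direction without passing the test, and the arrays of both groups overlapped for Plec. With limma's test and Benjamini-Hochberg adjustment over all genes, 3 of the 6 passed the threshold of 0.05, against 115 of 23255 genes (0.495%, with 0.456% upward and 0.0387% downward). The median difference of the 6 was 0.95 log2, against -0.04 log2 over all genes. The 6 genes were chosen with earlier results of these data known, so these figures are a description and not independent evidence.

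Gfap, the filament protein that defines gliosis, read 6.15 and 6.20 log2 in untreated day 17 retina and 8.49 and 8.65 log2 in uninjected OIR. Both OIR arrays were far above both untreated arrays. The untreated arrays lay just above background, with Gfap higher than 57.3% and 59.3% of their negative control probes. Folds of Gfap against this group are therefore not exact sizes. The difference was 2.39 ± 0.18 log2 (SE, n = 2 arrays per group, 95% interval 1.98 to 2.80, adjusted p = 0.00526), or 5.26-fold. It remained between 2.31 and 2.47 log2 when any 1 array was left out, with an adjusted p of up to 0.0656. The Gfap call was lost without either untreated day 17 array. It was also lost with array weights (limma, adjusted p = 0.0708). These weights came out equal for both arrays of each group, so they follow the spread within groups and do not rate single arrays.

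**Figure D1:**
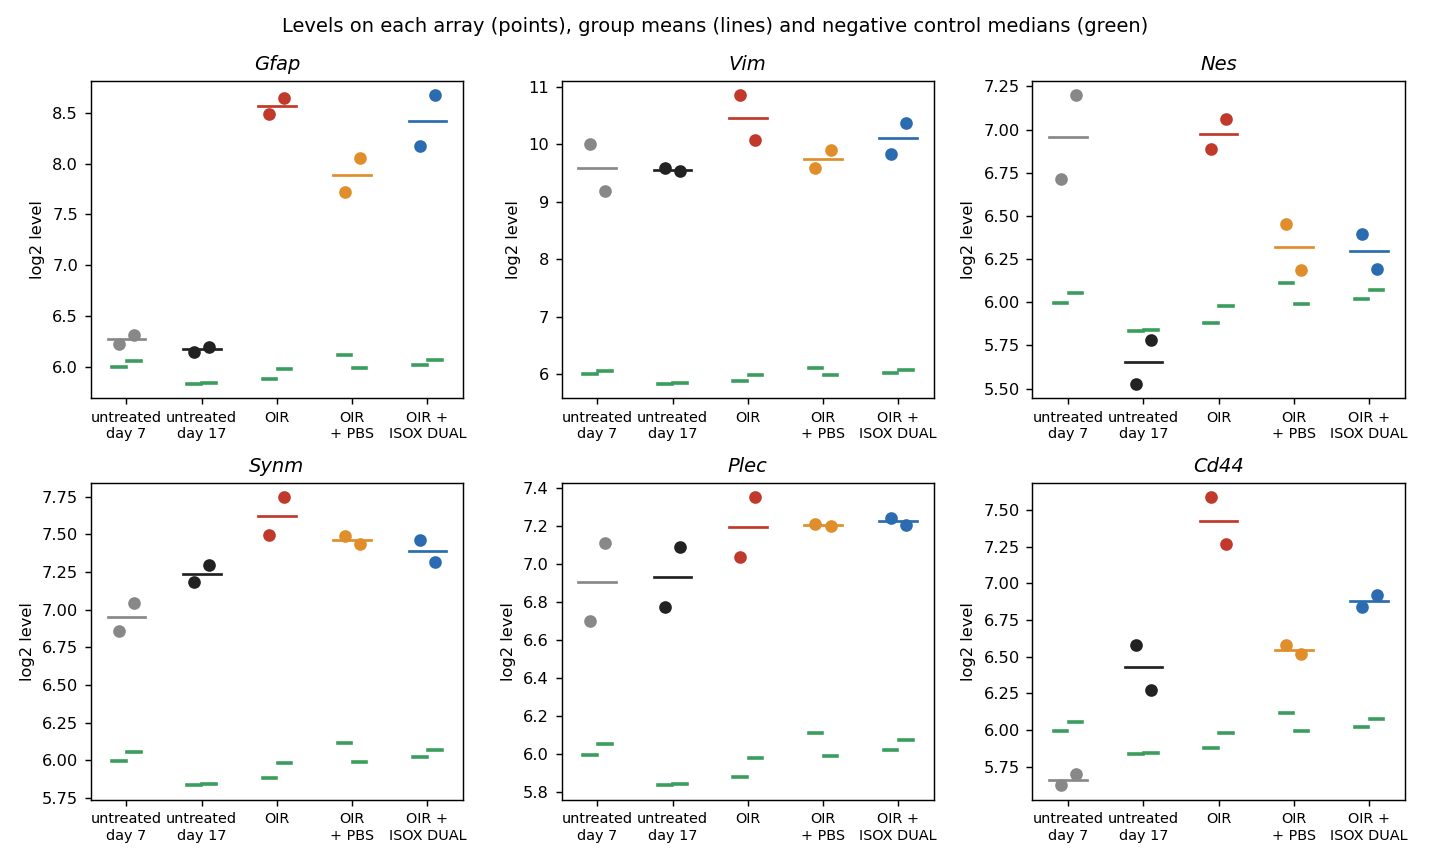
Log2 level of each of the 6 genes on every array (points, first and second array of a group from left to right), with the group mean (coloured line) and each array's median of negative control probes (green bar). Each panel has its own vertical scale, and Gfap is above 7.7 on all 6 OIR arrays and below 6.4 on all 4 untreated arrays.

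Vim encodes vimentin, the filament protein that Müller cells hold at all times, and which endothelial cells, microglia and lens cells also make. Its levels were 9.58 and 9.52 log2 in untreated day 17 retina and 10.84 and 10.06 log2 in uninjected OIR. The OIR arrays were the higher ones, but they lay 0.78 log2 apart. The difference was 0.90 ± 0.34 log2 (95% interval 0.12 to 1.68) and did not pass the test (limma, adjusted p = 0.680). Vim was higher on the first array than on the second in each uninjected group, the opposite order to the small nucleolar RNA genes, and the part of RNA preparation in its spread was not tested.

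Nes encodes nestin, the filament protein of progenitors. It read 5.53 and 5.78 log2 in untreated day 17 retina, below background, and 6.89 and 7.06 log2 in uninjected OIR. The groups did not overlap. The fitted difference, whose size is not exact because the untreated level was below background, was 1.32 ± 0.19 log2 (95% interval 0.89 to 1.75, limma adjusted p = 0.0324). Its call was lost without any 1 of the day 17, OIR, PBS or ISOX DUAL arrays, where the difference was 1.19 to 1.45 log2 and the adjusted p 0.0655 to 0.246.

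Synm encodes synemin, the partner that joins vimentin and GFAP filaments. It read 7.18 and 7.29 log2 in untreated day 17 retina and 7.50 and 7.75 log2 in uninjected OIR. Both OIR arrays were higher, yet the difference of 0.38 ± 0.12 log2 (95% interval 0.11 to 0.66) did not pass the test (limma, adjusted p = 0.497). Plec encodes plectin, the linker protein. Its levels of 6.78 and 7.09 log2 in untreated retina and 7.04 and 7.35 log2 in uninjected OIR overlapped, with a difference of 0.26 ± 0.17 log2 (95% interval -0.14 to 0.66).

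Cd44, the hyaluronan receptor, read 6.58 and 6.27 log2 in untreated day 17 retina and 7.59 and 7.27 log2 in uninjected OIR. Every OIR array was above every untreated array, and the difference of 1.00 ± 0.14 log2 (95% interval 0.67 to 1.33, limma adjusted p = 0.0324) corresponds to 2.00-fold. Leaving out any 1 of the 10 arrays ended the call, with a difference of 0.84 to 1.16 log2 and an adjusted p of 0.0625 to 0.199. With array weights the adjusted p was 0.0995 for Cd44 and 0.111 for Nes.

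The injected OIR groups were compared with the same untreated day 17 arrays, to see how far the genes lay from the untreated level after injection. These comparisons share the untreated arrays with the one above. Gfap remained high in both. After ISOX DUAL, 1 of the 6 genes passed, against 4 of 23255 genes (0.0172%, with 0.0086% upward and 0.0086% downward), and after PBS none did, where limma called 0 genes (0%) and 2126 had an unadjusted p under 0.05.

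Gfap read 8.18 and 8.67 log2 after ISOX DUAL, a rise of 2.25 ± 0.18 log2 over untreated retina (95% interval 1.84 to 2.66, limma adjusted p = 0.0411), or 4.76-fold. The call was lost without the second ISOX DUAL array (2.00 log2, adjusted p = 0.201), without the first or second day 17 array (0.312 and 0.105), and without either day 7 array (0.108 each). After PBS Gfap read 7.72 and 8.05 log2. That was 1.71 ± 0.18 log2 (95% interval 1.30 to 2.12) or 3.28-fold above untreated retina, not past the threshold (limma, adjusted p = 0.116). All 4 injected arrays were above all 4 untreated arrays.

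Nes read 6.45 and 6.19 log2 after PBS and 6.40 and 6.19 log2 after ISOX DUAL. These levels sat between untreated and uninjected OIR retina, 0.66 ± 0.19 log2 and 0.64 ± 0.19 log2 above the untreated mean, and neither passed the test (adjusted p = 0.537 and 0.394). Cd44 was 0.12 ± 0.14 log2 above untreated retina after PBS (95% interval -0.21 to 0.45), with overlapping arrays. After ISOX DUAL the Cd44 difference was 0.45 ± 0.14 log2 (95% interval 0.13 to 0.78, adjusted p = 0.434). For Vim, Synm and Plec the differences from untreated retina were 0.19, 0.23 and 0.27 log2 after PBS and 0.55, 0.15 and 0.29 log2 after ISOX DUAL, with none past the threshold.

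The series was set up to find genes raised by OIR that ISOX DUAL brings back, and PBS is the control for the injection. None of the 6 genes differed past the threshold between ISOX DUAL and PBS, where limma called 0 of 23255 genes (0%). An unadjusted p under 0.05 was seen for 237 genes, Gfap and Cd44 among them, a share below the 0.05 expected if no gene differed. Gfap was higher after ISOX DUAL by 0.54 ± 0.18 log2 (95% interval 0.13 to 0.95, adjusted p = 1.00), and the arrays did not overlap. Its higher ISOX DUAL array was the one with lens signal, and without that array the difference was 0.29 log2. Lens genes moved the same way, with 18 of 18 higher after ISOX DUAL, a median difference of 0.65 log2 and array means of 6.29 and 7.57 against 5.97 and 6.21 after PBS, and 4 of the 18 lay below background on both ISOX DUAL arrays. Their part in the Gfap difference was not tested.

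Cd44 read 6.84 and 6.92 log2 after ISOX DUAL and 6.58 and 6.52 log2 after PBS. The arrays did not overlap, and the difference was 0.33 ± 0.14 log2 (95% interval 0.01 to 0.66, adjusted p = 1.00). Vim read 9.83 and 10.37 log2 after ISOX DUAL and 9.58 and 9.90 log2 after PBS, overlapping levels that differed by 0.36 ± 0.34 log2, or 0.09 log2 without the second ISOX DUAL array. Nes differed by -0.02 log2 (95% interval -0.45 to 0.41), Synm by -0.07 log2 (-0.35 to 0.21) and Plec by 0.02 log2 (-0.38 to 0.42). For none of the 6 was a lower level after ISOX DUAL than after PBS detected, and the lower bounds leave room for a decrease of 0.45 log2 in Nes and 0.42 log2 in Vim.

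**Figure D2:**
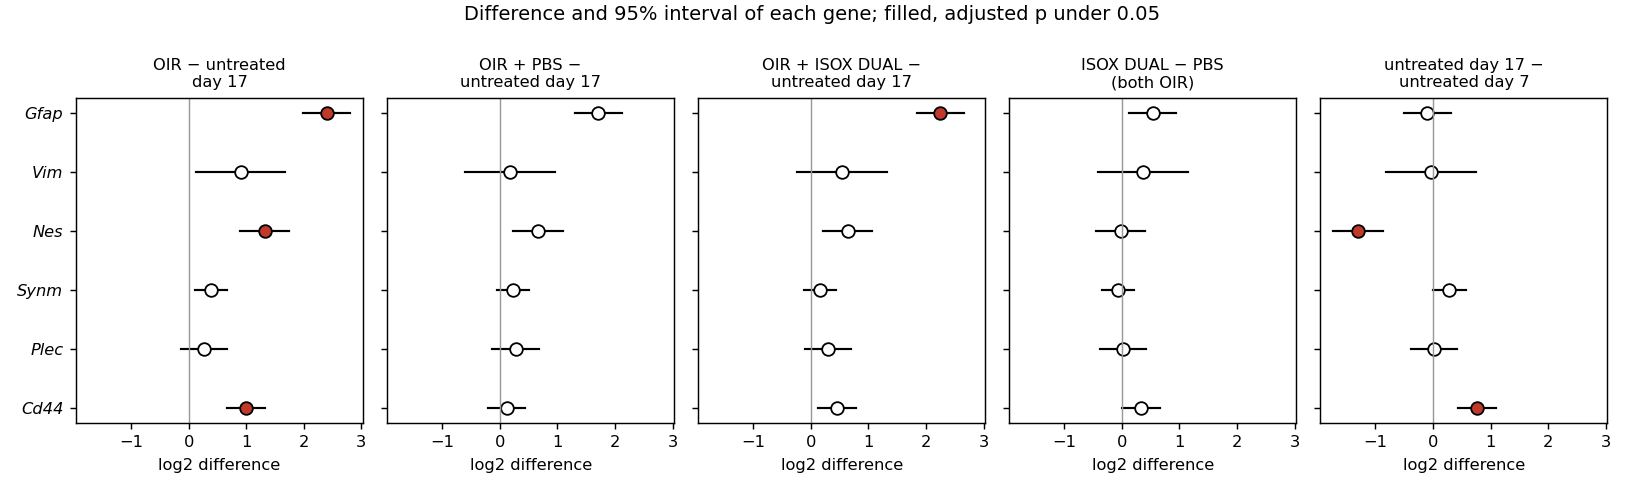
Log2 difference of each of the 6 genes in 5 comparisons (points) with its 95% interval from the limma fit (lines), filled where the adjusted p is under 0.05. Gfap is the only gene whose interval lies above 1 in all 3 OIR groups against untreated day 17 retina, and no gene is filled for ISOX DUAL against PBS.

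Both injected groups were also set against uninjected OIR, which asks what injection itself went with. All 3 groups here share arrays with the comparisons above. After PBS, limma called none of the 6 genes and 0 of 23255 genes (0%). An unadjusted p under 0.05 was seen for 997 genes, among them Gfap, Nes and Cd44. That share lies below the 0.05 expected if no gene differed. Cd44 was lower after PBS by -0.88 ± 0.14 log2 (95% interval -1.21 to -0.55, adjusted p = 0.217), Gfap by -0.68 ± 0.18 log2 (adjusted p = 0.707) and Nes by -0.66 ± 0.19 log2 (adjusted p = 0.835). The arrays did not overlap for these 3, nor for Vim and Synm. This is a description and no test, and the share of all genes without overlap was not counted. The Gfap arrays of day 7 and day 17 did not overlap either, yet these groups did not differ beyond their spread. Vim differed by -0.72 ± 0.34 log2 with an interval of -1.50 to 0.07, Synm by -0.16 log2 and Plec by 0.01 log2.

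After ISOX DUAL, 1 of 23255 genes differed from uninjected OIR past the threshold (0.0043%), and none of the 6. Gfap differed by -0.14 ± 0.18 log2 (95% interval -0.55 to 0.27), and its arrays overlapped. Nes differed by -0.68 ± 0.19 log2 (adjusted p = 0.797) and Cd44 by -0.55 ± 0.14 log2 (adjusted p = 0.734), in both cases without overlap. The Nes level was thus about equally far below uninjected OIR in both injected groups, whereas PBS retina had the lower mean of Gfap and Cd44. The values for Vim, Synm and Plec were -0.35, -0.23 and 0.03 log2, with intervals that included 0. The Synm arrays did not overlap either, so lack of overlap was not particular to Nes and Cd44. Vessel markers lay lower in the injected groups too. None of 13 pericyte and smooth muscle genes was higher than in uninjected OIR after PBS or after ISOX DUAL (medians of -0.21 and -0.30 log2). Of these 13, 7 lay below background on both PBS arrays, 6 on both ISOX DUAL arrays and 4 on both uninjected OIR arrays. Of 14 endothelial genes, 4 and 3 were higher (medians of -0.19 and -0.18 log2). No gene of either list passed limma's test, and their part in the Nes difference was not tested.

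Maturation of the untreated retina between day 7 and day 17 moved Nes and Cd44 in opposite directions and left the other 4 genes without a detected change. Limma called 2 of the 6 genes, against 2454 of 23255 genes (10.6%, of which 5.26% upward and 5.29% downward). Nes read 6.71 and 7.20 log2 at day 7 and fell by 1.30 ± 0.19 log2 to below background by day 17 (95% interval -1.73 to -0.87, adjusted p = 0.00466). Cd44 read 5.62 and 5.701 log2 at day 7, below background, and rose by 0.76 ± 0.14 log2 (95% interval 0.44 to 1.09, adjusted p = 0.0130). The Cd44 call was lost without the first day 17 array (0.61 log2, adjusted p = 0.0616), without the first day 7 array (0.73 log2, adjusted p = 0.0542) and with array weights (adjusted p = 0.0541).

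Gfap was at 6.23 and 6.31 log2 at day 7, and its difference to day 17 was -0.10 ± 0.18 log2. Vim read 9.996 and 9.18 log2 at day 7 and differed by -0.04 ± 0.34 log2. The day 7 arrays of Vim lay on both sides of the day 17 arrays. Synm, with 6.86 and 7.05 log2 at day 7, differed by 0.29 ± 0.12 log2 (95% interval 0.01 to 0.57, adjusted p = 0.203), and Plec, with 6.70 and 7.11 log2, by 0.03 ± 0.17 log2.

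Ordered by group mean, the 6 genes gave different sequences of groups. The intervals used for these steps are not adjusted for the number of genes. No step between 2 of the OIR groups passed limma's adjusted test. Gfap ran from uninjected OIR (8.57 log2) through ISOX DUAL (8.42 log2) and PBS (7.89 log2) to day 7 (6.27 log2) and day 17 (6.17 log2). The first 2 and the last 2 of these did not differ beyond their spread, while the step from PBS to day 7 was 1.61 log2 (95% interval 1.21 to 2.02). Nes was highest in uninjected OIR and at day 7, which differed by 0.02 log2 (95% interval -0.41 to 0.45), then came PBS and ISOX DUAL at 6.32 and 6.30 log2, and day 17 was lowest at 5.66 log2. Cd44 fell from uninjected OIR (7.43 log2) to ISOX DUAL (6.88 log2), then to PBS and day 17 (6.55 and 6.43 log2), which did not differ beyond their spread, and to day 7 (5.66 log2). No neighbouring groups of Vim or Plec differed beyond their spread. For Synm the single step whose interval left out 0 was the lowest one, from day 17 to day 7.

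Of 17 other intermediate filament genes (neurofilaments, keratins, lamins, desmin, the lens filament genes and others), none passed limma's test in uninjected OIR, and 1 had an unadjusted p under 0.05. Their median difference was -0.05 log2, near that of all genes, and 6 of the 17 were higher. Des, the desmin gene of pericytes and smooth muscle, had the smallest p (adjusted p = 0.370) and lay below background in both groups, so no size is given. Nefh, the heavy neurofilament chain of ganglion cell axons, differed by -0.37 ± 0.18 log2 (adjusted p = 0.931). Between day 7 and day 17, Nefh rose by 1.57 ± 0.18 log2 (adjusted p = 0.00204) and Krt18, a keratin gene of simple epithelia, by 1.16 ± 0.20 log2 (adjusted p = 0.00932), with none of the 17 lower. Among 7 further linker genes of the plakin and dystrophin families, limma called none in OIR and none had an unadjusted p under 0.05. Dst, encoding the plakin dystonin, differed by -0.12 ± 0.10 log2 in OIR and rose by 0.55 ± 0.10 log2 between the days (adjusted p = 0.0117). Leaving out the second day 7 array ended the calls of Krt18 (adjusted p = 0.0565) and Dst (0.0569), and leaving out the first day 17 array also ended that of Dst.

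Of 28 tested genes known from reactive glia, 8 rose in uninjected OIR and none fell. Their median difference was 0.36 log2 against -0.04 log2 over all genes, and 26 of the 28 were higher. A2m, which encodes the protease inhibitor alpha-2-macroglobulin, rose by 1.88 ± 0.17 log2 (limma, adjusted p = 0.00905). Its untreated arrays, at 5.78 and 5.95 log2, lay on either side of background, so this size is not exact. Stat3, the transcription factor that acts on Gfap, rose by 1.56 ± 0.15 log2 (adjusted p = 0.0129) from 7.63 and 7.83 to 9.21 and 9.38 log2. Cebpd, a transcription factor of acute inflammation, rose by 1.82 ± 0.20 log2 (adjusted p = 0.0178), and Edn2, the endothelin made by stressed photoreceptors, by 0.99 ± 0.11 log2 (adjusted p = 0.0186). The list's array means were 5.95 and 5.98 in untreated day 17 retina, 6.59 to 6.76 in uninjected OIR, 6.24 to 6.30 after PBS and 6.47 to 6.61 after ISOX DUAL, and 10 of the 28 lay below background in the untreated group. This list, like the 6 genes and the other lists, was chosen with earlier results of these samples known, so its direction is not independent evidence.

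Between ISOX DUAL and PBS none of these 28 genes passed with limma, and 7 had an unadjusted p under 0.05, all higher after ISOX DUAL. The median difference was 0.21 log2 with 23 of 28 higher. Serpina3n, a secreted protease inhibitor of reactive astrocytes, had the smallest p (1.42 ± 0.35 log2, adjusted p = 1.00), with 8.33 and 9.25 log2 after ISOX DUAL and 7.38 and 7.36 log2 after PBS. A2m differed by 0.61 ± 0.17 log2 (adjusted p = 1.00). As for Gfap, the higher Serpina3n level was on the array with lens signal.

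Among 20 genes of the signals that act on Gfap (gp130 ligands and receptors, Janus kinases, STATs, nuclear factor I, Sox9 and AP-1), 3 rose in uninjected OIR and none fell, with a median difference of 0.14 log2. They were Stat3, also among the reactive glia genes, Sox9, a glial fate factor (0.91 ± 0.11 log2, adjusted p = 0.0234), and Osmr, the oncostatin M receptor (1.77 ± 0.23 log2, adjusted p = 0.0275), which is on both lists too. Osmr read 6.89 and 6.40 log2 in untreated day 17 retina and 8.67 and 8.15 log2 in OIR. Of 19 ligands and partners of CD44, 1 rose in uninjected OIR, with a median difference of -0.04 log2. It was Msn, which encodes moesin, the protein that anchors CD44 to actin (1.60 ± 0.14 log2, adjusted p = 0.00905), with 7.63 and 7.62 log2 in untreated retina and 9.31 and 9.13 log2 in OIR. Over all lists described here, including the marker lists below, 13 genes besides the 6 passed in uninjected OIR. Every one of the 13 lost its call without the second untreated day 17 array, and the highest adjusted p with 1 array left out lay between 0.0630 and 0.246, while no direction changed. The loss without that second day 17 array was not particular to the 13, as all other genes lost their calls there too. With array weights 2 of the 13 passed, Cebpd and Spc25, against 12 of 23255 genes. Between the days 3 of the 19 rose and 6 fell, among them Hmmr, a hyaluronan receptor gene of dividing cells, which is given no size because it lay below background on all arrays of both days. Lyve1, the hyaluronan receptor of lymphatic vessels and macrophages, rose by 2.10 ± 0.26 log2 from below background (adjusted p = 0.0028).

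**Figure D3:**
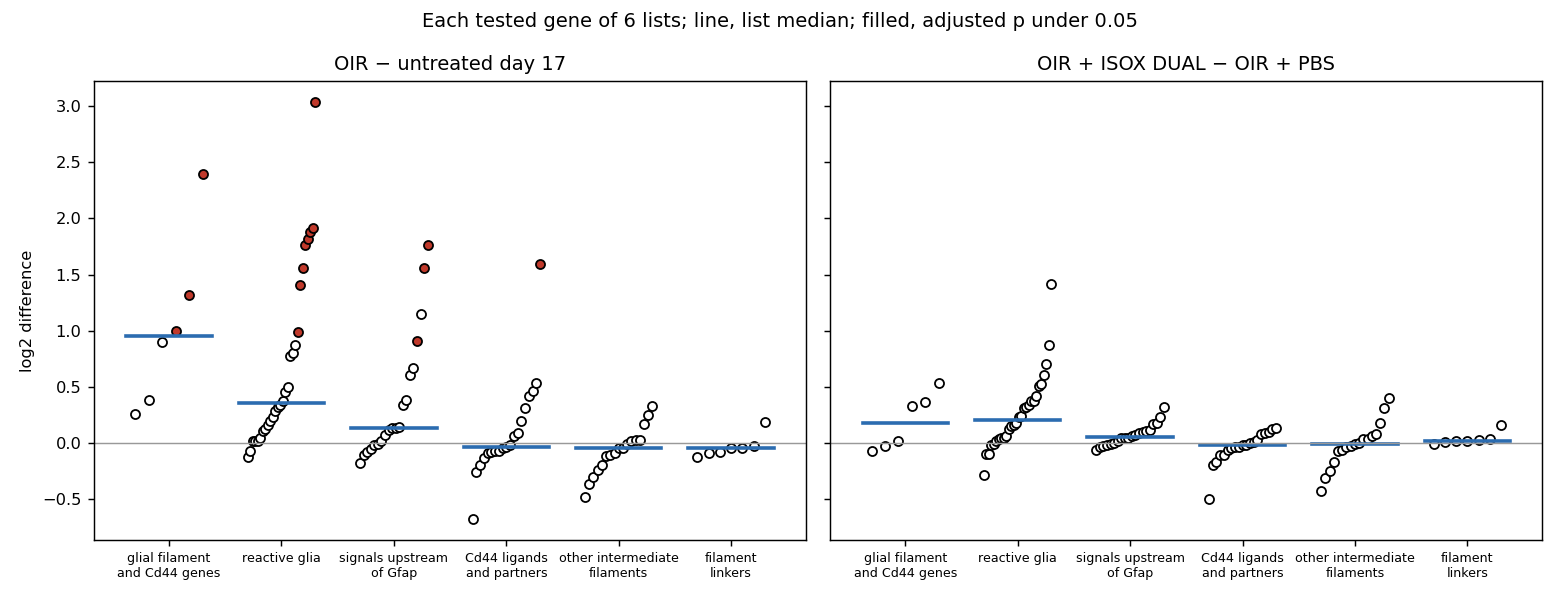
Log2 difference of every tested gene of 6 lists in uninjected OIR against untreated day 17 retina (left) and in ISOX DUAL against PBS (right), with list medians as blue lines and genes at an adjusted p under 0.05 filled. Filled points lie above 0 in the left panel, and the right panel holds none.

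Marker genes of the cell types that carry these filaments, or that the samples could hold, were compared between uninjected OIR and untreated day 17 retina. Of 18 genes of resting Müller glia, 1 rose and 2 fell, with a median of -0.30 log2, and the list's array means were 8.13 to 8.43 in OIR and 8.50 to 8.68 in untreated retina. Sox9 rose, as above, while Spc25, a kinetochore gene used as a Müller marker in mature retina, fell by 1.71 ± 0.14 log2 (adjusted p = 0.00572) and Abca8a, a lipid transporter gene, by 0.87 ± 0.12 log2 (adjusted p = 0.0338). Of 12 astrocyte genes, only Sox9 passed, and array means were 6.90 to 6.91 in OIR and 6.80 to 7.00 in untreated retina. Of the 12, Pax2, Gja1, Gjb6 and S100b lay below background on both OIR arrays, and the other 8 did not.

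Vessel markers mostly differed in the same direction as Gfap, Nes and Cd44 in uninjected OIR. Of 13 pericyte and smooth muscle genes, 11 were higher in uninjected OIR with a median of 0.33 log2 (array means 6.83 to 6.98 against 6.37 to 6.42). In each of these 2 groups, 4 of the 13 lay below background on both arrays. Mcam, an adhesion molecule of pericytes, rose by 1.56 ± 0.22 log2 (limma, adjusted p = 0.0322). Of 14 endothelial genes, 12 were higher with a median of 0.23 log2 (array means 6.94 to 7.13 against 6.66 to 6.76). None passed with limma, 6 had an unadjusted p under 0.05, and Eng, an endothelial receptor of the TGF-beta family, had the smallest p (0.84 ± 0.16 log2, adjusted p = 0.116). Their part in the Nes difference, a gene that growing endothelium expresses, was not tested, nor was it for Gfap and Cd44.

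Progenitor and microglia markers gave smaller shifts. Of 12 progenitor genes, none passed in uninjected OIR with limma, and 4 had an unadjusted p under 0.05. Only 7 of the 12 were higher, with a median of 0.06 log2. Array means were 6.50 in OIR against 6.19 to 6.29 in untreated retina. Mki67, a gene of dividing cells, had the smallest p (1.84 ± 0.30 log2, adjusted p = 0.0570) and was below background in untreated retina. Between day 7 and day 17, when Nes fell, 5 of the 12 fell and none rose, with Mki67 lower by -4.32 ± 0.30 log2 (adjusted p = 0.00031) and Fgf15, a growth factor gene of progenitors, by -1.86 ± 0.13 log2 (adjusted p = 0.00031), both reaching levels below background. Of 14 microglia genes, which matter here because microglia also make CD44 and vimentin, none passed in OIR with limma, and 4 had an unadjusted p under 0.05. Of the 14, 11 were higher with a median of 0.16 log2, and array means were 5.99 to 6.24 against 5.88 on both untreated arrays. Below background on both arrays lay 6 of the 14 in untreated retina and 5 in OIR. Mrc1, a receptor of perivascular macrophages, had the smallest p (0.90 ± 0.19 log2, adjusted p = 0.150, below background in untreated retina), and the part of these cells in the Cd44 and Vim levels was not tested.

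Genes of the pigment epithelium, the layer behind the retina, lay lower in all 3 OIR groups than in untreated day 17 retina. Of 11 such genes 10 were lower in uninjected OIR, with a median of -0.39 log2, and the medians were -0.37 log2 after PBS and -0.50 log2 after ISOX DUAL. Array means were 6.98 to 7.26 in untreated day 17 retina, 6.39 to 6.94 in uninjected OIR, 6.56 to 6.73 after PBS and 6.38 to 6.77 after ISOX DUAL, and 1 of the 11 lay below background in uninjected OIR. Limma called none of them in uninjected OIR, and 4 had an unadjusted p under 0.05. Slc6a20a, an amino acid transporter gene, had the smallest p (-0.39 ± 0.13 log2, adjusted p = 0.566). Their part in the differences of the 6 genes was not tested. Of 13 rod and cone genes, 5 were higher in uninjected OIR, with a median of -0.06 log2 and array means of 10.4 to 10.7 against 10.5 to 10.7, and of 18 lens genes 1 was higher, with a median of -0.11 log2.

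**Figure D4:**
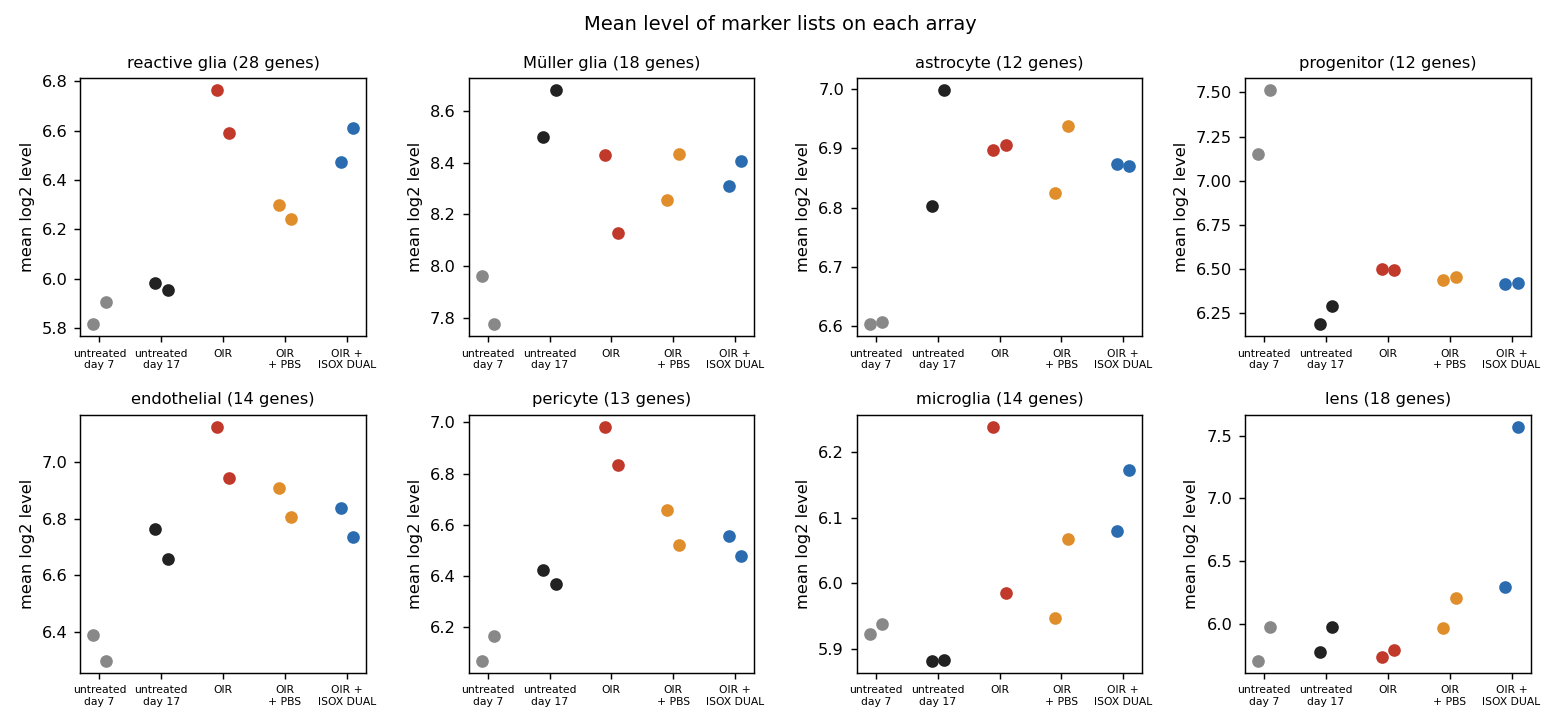
Mean log2 level of 8 marker lists on each array (points, first and second array of a group from left to right), each panel with its own vertical scale. The pericyte list is highest on the uninjected OIR arrays and the progenitor list at day 7, the reactive glia list has 1 ISOX DUAL array (6.61) above the lower uninjected OIR array (6.59), and the lens list reaches 7.57 on the second ISOX DUAL array.

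The genes whose levels most resembled each member over the 10 arrays were ranked by Pearson's r among 15979 named genes. The arrays share groups, so r mostly describes the group means and is given as a description without a test. For Gfap the 8 nearest were Myof (r = 0.97), A2m (0.96), and Pcolce, Tgfbr2, Serpina3n, Fhad1, Edn2 and Ccnd2 (each 0.95). Myof, the myoferlin gene of membrane repair, had group means of 6.75 log2 in untreated day 17 retina, 7.77 in uninjected OIR, 7.58 after PBS and 7.72 after ISOX DUAL. Of these 8, 3 are on the reactive glia list. For Cd44 the nearest were Osmr (0.98), Eva1c and Hsd17b2 (0.97 each), and for Nes they were Clic4 (0.97), Slc22a21 and Swap70 (0.96 each). Slc22a21 lay below background on both arrays of every group but uninjected OIR, with a standard deviation of 0.08 log2 over all arrays. Clic4, an intracellular chloride channel gene of vessel formation, followed Nes with 7.86 log2 at day 7, 6.73 at day 17 and 7.67 in uninjected OIR.

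Synm was nearest to Jakmip3 and Ak4 (0.98 each) and Vwf (0.97), and Plec to Piezo1, Alkbh5 and Col6a3 (0.97 each). Col6a3 lay below background on both arrays at day 7, after PBS and after ISOX DUAL. Vwf encodes the von Willebrand factor of endothelium and Ak4 a mitochondrial adenylate kinase. Vim was nearest to Clec7a (0.95), Cd53 (0.93) and Lilrb4a (0.91), genes of myeloid cells whose group means of 4.47 to 5.99 log2 were at or below background. Among the 6 genes themselves, r ran from 0.03 for Nes and Cd44 to 0.84 for Synm and Cd44. Gfap had r of 0.81 with Cd44, 0.79 with Synm, 0.71 with Plec, 0.68 with Vim and 0.29 with Nes.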

How the data were processed

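Each sample was 1 Affymetrix whole-transcript array of retinal total RNA, extracted with Trizol and labelled with biotin per the labels' protocols. The authors deposited 1 log2 value per transcript cluster and array, a scale read from the values (array medians 5.55 to 5.68). Software, background correction and normalization: not given in the sources used here. No further normalization was applied. Of 65956 transcript clusters, 30604 had 1 gene symbol, 2146 several and 33206 none, and symbols were updated with RefSeq genes of GRCm38.p6. Each gene was read from the brightest cluster with its symbol alone, and was tested where 2 or more arrays exceeded their 30th percentile. Of the 6732 control rows set aside, 5222 negative control probes gave the background.

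The linear model used R 4.3.3 and limma 3.58.1 (eBayes without trend, two-sided) on all 10 arrays, with 5 residual and 2.76 prior degrees of freedom, and ± gives the standard error. P-values were adjusted by Benjamini-Hochberg over 23255 genes at a threshold of 0.05. Promoters and counts were read with Python 3.11.15. The number of arrays limits the precision, with a median standard error of 0.134 log2. In simulated data with changed genes among the 23255, uninjected OIR against untreated day 17 retina recovered 82% of 2-fold, 99% of 4-fold and 0% of 1.5-fold changes. ISOX DUAL against PBS recovered 76.5% of 2-fold changes. The simulated noise was independent between arrays and genes, with the variances of the fit. In the real arrays, differences within the uninjected groups correlated across genes (0.583 to 0.809), so recovery in these data may be lower.

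The members and lists were chosen with earlier results of these data known. Besides the members, the text names up to 4 genes past the threshold from each list by smallest p, or 1 or 2 of smallest p where none passed, and the genes most like a member. Alternatives were quantile normalization, other filters, an intensity trend, array weights, only the arrays compared, the mean of a gene's clusters, a replicate block and leaving out each array.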

Additional observations from a re-analysis of the deposited data

How the results depend on the processing

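Directions were stable for the genes that passed, but their calls depend on few arrays. In uninjected OIR, 3 of the 6 genes passed under quantile normalization, both other filters, an intensity trend, the mean of a gene's clusters and the replicate block. With array weights or only the 4 arrays compared 0 passed, and 0 to 2 passed when 1 array was left out (0 without either day 17 array). For ISOX DUAL against untreated day 17 retina the count of 1 became 0 with array weights and with only 4 arrays, and 0 to 1 with 1 array left out. For day 17 against day 7 the count of 2 became 1 with array weights, 0 with only 4 arrays and 1 to 2 with 1 array left out. Fits on 4 arrays estimate the spread from those arrays alone. In uninjected OIR the losses were not particular to the 6 genes. Over all 23255 genes, array weights left 12 calls and the fit on 4 arrays 0. Calls over all genes also became fewer with any 1 array left out. The other comparisons had 0 of the 6 genes under all settings run, apart from the block below.

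The numbers 1 and 2 of the titles were not taken to pair the arrays, because same-numbered arrays did not deviate together in every pair of groups. Within the uninjected groups, and less within the injected ones, they did. Differences between the first and second array correlated across genes at 0.583 to 0.809 among the uninjected groups, at 0.399 for both injected groups, and at -0.406 to -0.0567 across injected and uninjected retina. With the replicate block, 115 called genes in uninjected OIR became 134, and for PBS against untreated retina 1 of the 6 passed (Gfap, adjusted p = 0.0420) in place of 0. Crossing the numbers in the injected groups, a setting chosen after seeing the data, gave 215 genes and 3 of the 6 for uninjected OIR, and 43 genes and 1 of the 6 for PBS against untreated retina.

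Reversals were among small differences that did not pass, and the cause was not tested. The ranges with 1 array left out were as follows, in log2. For ISOX DUAL against PBS, Plec ranged from -0.00071 (first ISOX DUAL array left out) to 0.037, and Nes from -0.16 to 0.11, with 0.08 without the second ISOX DUAL array and 0.11 without the first PBS array. For PBS against uninjected OIR, Plec was -0.016 after quantile normalization and ranged from -0.15 (without the first OIR array) to 0.17. For ISOX DUAL against uninjected OIR, Gfap ranged from -0.39 to 0.11 (first ISOX DUAL array left out), Vim from -0.74 to 0.038 and Plec from -0.13 to 0.19, the last 2 reversed without the first OIR array. Cd44 after PBS against untreated retina ranged from -0.036 (without the second day 17 array) to 0.28. For day 17 against day 7, Vim ranged from -0.44 to 0.37 and Plec from -0.18 to 0.23, reversed without the first day 7 array, and Plec was -0.13 without the second day 17 array.

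Over all settings the count of called genes ranged from 0 to 215 for uninjected OIR (main 115, 12 with array weights), from 345 to 3539 for day 17 against day 7 (main 2454), from 0 to 53 for ISOX DUAL against untreated retina (main 4), from 0 to 43 for PBS against untreated retina (main 0), from 0 to 7 for ISOX DUAL (main 1) and from 0 to 5 for PBS (main 0) against uninjected OIR, and from 0 to 1 for ISOX DUAL against PBS (main 0).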
